A study of Mus musculus with 6 samples.

Results

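The genes of the translation initiation factors (eIFs) and elongation factors (eEFs) were compared between RAW264.7 cells kept with and without C2S. RAW264.7 is an established line of mouse macrophages (BALB/c strain). They were chosen by name, as the protein-coding genes whose symbol starts with Eif or Eef and a digit. This gave 67 of 21896 protein-coding genes, and it takes in the kinases of eIF2α, the eIF4E-binding proteins, the kinase of eEF2 and methyltransferases that act on elongation factors. The study had 6 RNA-seq libraries, of which 3 came from cells exposed for 24 h to 150 µg/ml of C2S, an extract, and 3, called PM_control, from cells at 0 µg/ml. Neither name is spelled out in the labels. All libraries come from 1 cell line, and nothing in the labels ties the replicates to separate cultures. The p-values therefore rest on a spread that could be technical.

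Translation begins when eIF2, bound to GTP and the initiator tRNA, joins the small ribosomal subunit together with eIF1, eIF1A, eIF3 and eIF5. The mRNA is brought in through its cap by eIF4E, the scaffold eIF4G and the helicase eIF4A, and eIF5B then joins the large subunit. Elongation needs eEF1A, which delivers aminoacyl-tRNA, and eEF2, which moves the ribosome along. Cells adjust initiation mainly at 2 points. Kinases that phosphorylate eIF2α block its recycling by eIF2B, and eIF4E-binding proteins, released from repression when mTORC1 is inactive, keep eIF4E from eIF4G. In macrophages both points are known to shape how much cytokine and stress protein is made. These controls act on proteins, and the data here are transcript levels only.

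The sequences upstream of the start of transcription are shown for the 3 genes with the largest rises, Eif1, Eif5 and Eif4a2, and for Eef2, the most abundant called elongation factor gene whose rise was kept under every alternative tried. They are from RefSeq on GRCm38.p6, 5′ to 3′ on the plus strand, which is the strand of all 4 genes, and they stop before the gene start in GENCODE M21. Eif1 is at chr11:100319699-100319884, Eif5 at chr12:111537851-111538015, Eif4a2 at chr16:23107218-23107443 and Eef2 at chr10:81176381-81176630. Capitals mark the matched motif letters described next.
Eif1: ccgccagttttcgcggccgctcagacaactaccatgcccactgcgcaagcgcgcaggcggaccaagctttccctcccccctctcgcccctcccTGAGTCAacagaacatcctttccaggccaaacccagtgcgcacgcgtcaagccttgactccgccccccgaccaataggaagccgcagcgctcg
Eif5: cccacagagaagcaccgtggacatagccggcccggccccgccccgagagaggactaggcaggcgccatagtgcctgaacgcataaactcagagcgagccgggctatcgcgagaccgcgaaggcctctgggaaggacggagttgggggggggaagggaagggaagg
Eif4a2: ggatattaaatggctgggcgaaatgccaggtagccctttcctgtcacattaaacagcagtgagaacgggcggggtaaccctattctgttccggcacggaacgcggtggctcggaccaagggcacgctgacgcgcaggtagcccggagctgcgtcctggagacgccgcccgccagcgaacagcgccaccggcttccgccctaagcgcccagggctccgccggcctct
Eef2: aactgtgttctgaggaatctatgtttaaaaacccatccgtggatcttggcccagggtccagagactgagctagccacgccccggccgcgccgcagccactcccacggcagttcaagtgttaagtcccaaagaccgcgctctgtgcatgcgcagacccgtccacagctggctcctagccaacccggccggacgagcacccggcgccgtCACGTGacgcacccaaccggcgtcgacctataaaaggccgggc

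In the 250 bases upstream of the RefSeq start, 4 motifs were searched on both strands, and none of them overlaps another in the sequences shown. The AP-1 motif TGANTCA occurred in 6.75% of 32851 mouse promoters, and among 66 promoters of 51 matched genes in 4, those of Eif1, Eif3f, Eif2ak3 and Eif3l. The match of Eif1 begins at base -157 from the RefSeq start. The CRE motif TGACGTCA was in 1.55% of all promoters and in 0 of the 66. The CARE motif TGATGNAA was in 3.45% of all promoters and in 2 of the 66, those of Eef2k and Eif2s3x. The E-box CACGTG was in 6.02% of all promoters and in 13 of the 66, from 11 genes. These were Eef2, Eif3f, Eif3k and Eif4a1, called higher, Eif1b, called lower, and Eef2k, Eif4e, Eif4g1, Eif4h and Eif5a, not called. The last was Eif5a2, which was not tested. The match of Eef2 begins at base -43. A match describes letters only, and no binding was measured here.

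Of the 67 genes, 63 had enough counts to be tested, and 22 were higher and 13 lower with C2S. The 35 called genes were 55.6% of those tested, against 55.4% of all 11561 genes tested. Higher calls made up 34.9% of the tested genes against 27.0% of all genes, and lower calls 20.6% against 28.4%. The other 28 did not pass the threshold, an adjusted p of 0.05 in edgeR's quasi-likelihood test. The 3 C2S values lay wholly above the 3 control values for 24 genes and wholly below for 17, or 41 in all (65.1%). Among all tested genes the shares were 29.7% wholly above, 31.4% wholly below and 61.1% in all. Every one of the 35 called genes was among these 41.

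The changes were mostly small. The median absolute log2 fold change was 0.20, against 0.34 for all genes tested, and the median signed change was 0.06, against 0.00. At least 1.5-fold changes were called for 5 genes (7.94%). Eif1, Eif5 and Eif4a2 were that much higher (4.76%, against 12.3% of all genes) and Eif2b4 and Eef1akmt3 that much lower (3.17%, against 14.7%). These genes are also well expressed, with a median level of 134 CPM against 32 for all genes tested, where CPM is a gene's counts scaled to a common library total with edgeR's TMM factors. In the plot of fold changes by complex, the dots for most complexes stay close to 0.

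**Figure D1:**
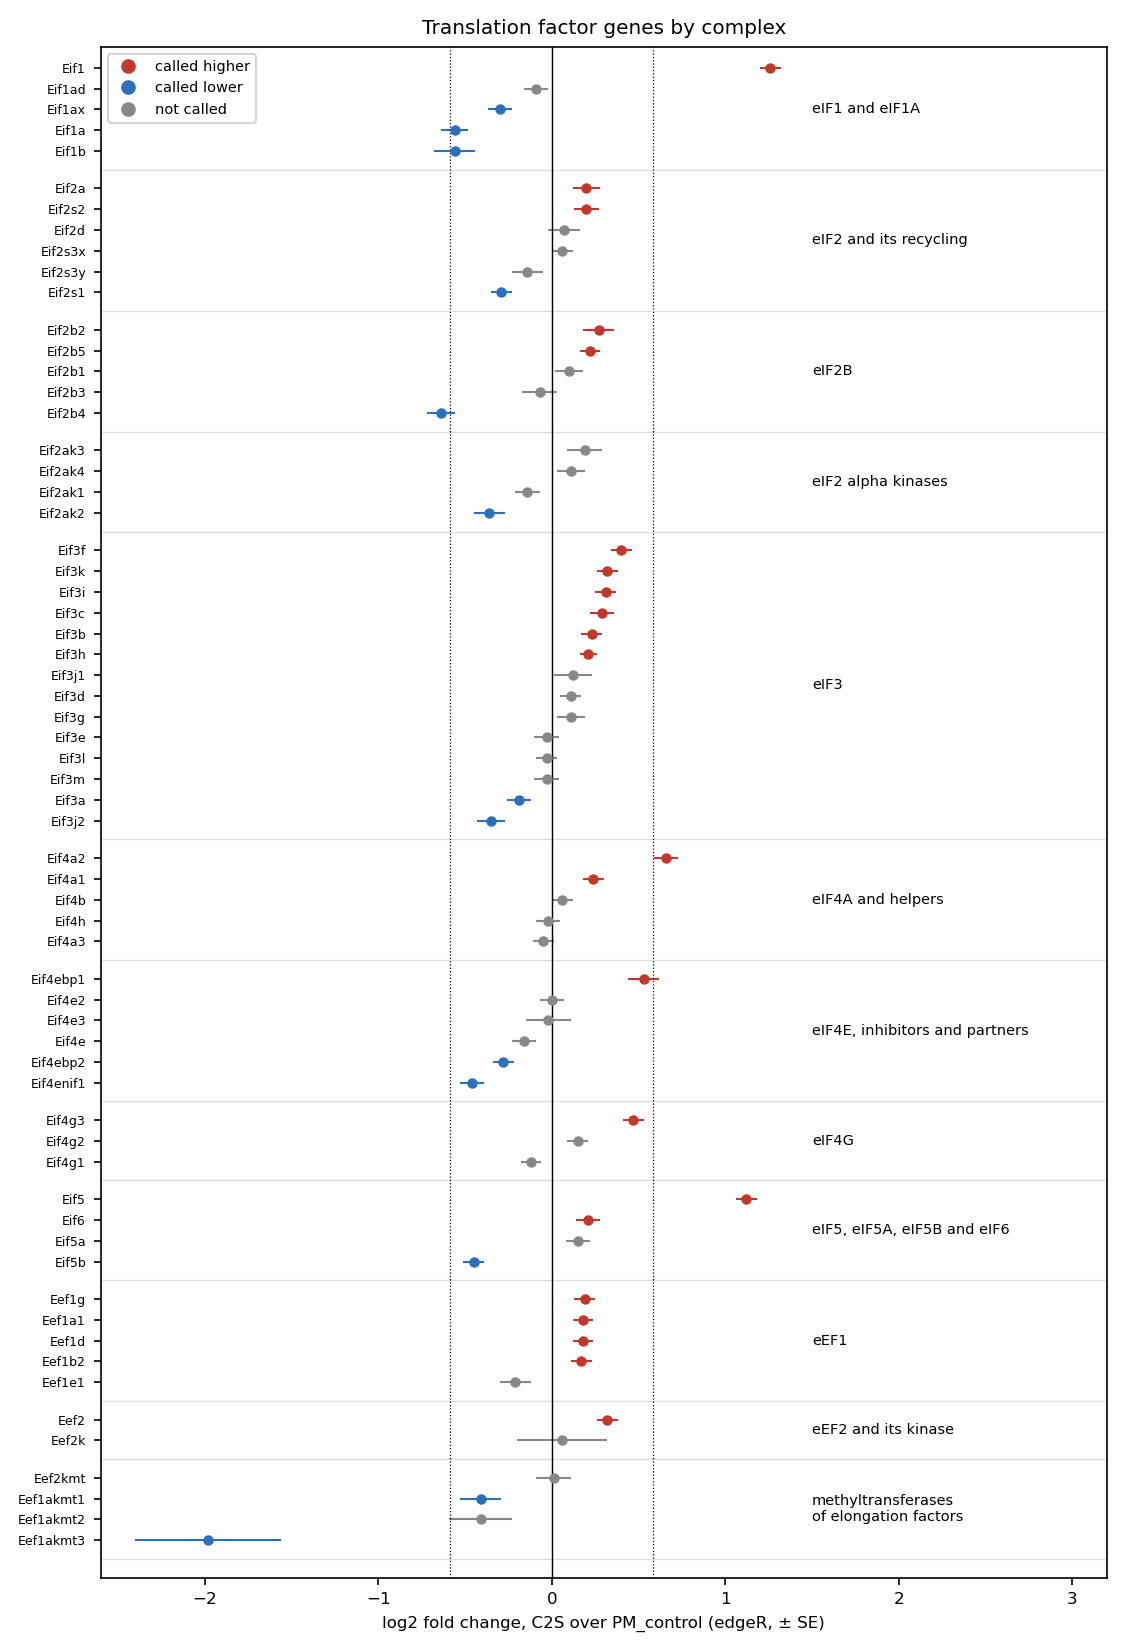
Log2 fold change of C2S over PM_control for each of the 63 tested genes, by factor complex, with bars for its SE (3 libraries per group) and dotted lines at 1.5-fold. Eif1 at 1.26 and Eif5 at 1.12 are the farthest to the right, and Eef1akmt3 at -1.98 the farthest to the left.

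Of the 4 genes that were not tested, Eif5a2, a paralog of Eif5a, had no reads. Eef1a2, the muscle and neuron form of eEF1A, had counts of 0, 0 and 1 with C2S and 0, 0 and 2 in the controls. Eif4e1b, an eIF4E relative of germ cells, had 2, 1 and 0 against none, and the third eIF4E-binding protein gene Eif4ebp3 had 2, 0 and 0 against 2.3, 0 and 2.4. All 3 were at or below the floor of 3 counts, which is 0.281 to 0.349 CPM in these libraries, a limit that covers counting error only.

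The libraries held 8594485 to 10665869 estimated counts each. In such bulk samples fewer cells of a type and less RNA per cell cannot be told apart. All 9 macrophage markers were detected. Of them, 5 were called higher (55.6%, against 27.0% of all genes) and 1 lower (11.1%, against 28.4%). Their summed level was 8481 to 8687 CPM with C2S and 7285 to 7704 in the controls. Of 9 markers of other cell types, Cd3e, Epcam and Pdgfra were at 0 in every library. The summed level of the 9 was 4.75 to 10.6 CPM with C2S and 0.641 to 0.909 in the controls, of which Pecam1, an adhesion molecule, made up 6.01 ± 2.53 and 0.2 ± 0.108 CPM (SD, n = 3 per group). The part of other cell types in the results was not tested.

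The start site selection factors moved in opposite directions, with Eif1 up and the other eIF1 and eIF1A genes either lower or not called. eIF1 guards the accuracy of start codon choice. Eif1 (ENSMUSG00000035530, chromosome 11, 100319885 to 100322096, mm10) measured 634, 645 and 625 CPM in the C2S libraries and 257, 278 and 263 CPM in the controls, with no overlap between the groups. The log2 fold change of Eif1 was 1.26 ± 0.06 (SE; edgeR, adjusted p = 1.56e-11). Its expected counts were 6464.97, 5374.91 and 5527.96 with C2S and 2803.92, 2748.95 and 2504.98 in the controls. They depart from whole numbers, a sign of reads shared with other copies, so the rule used here gives Eif1 as uncertain. The departures are small beside the counts, and how many reads were shared is not given. Eif5 (chromosome 12, 111538016 to 111546752), which makes eIF2 hydrolyse its GTP, rose likewise from 236, 239 and 253 CPM in the controls to 540, 553 and 492 CPM. Its log2 fold change was 1.12 ± 0.06 (edgeR, adjusted p = 1.71e-10). Start codon recognition involves both factors, and both rose by over 2-fold.

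Genes encoding eIF1A, which helps open the scanning ribosome, fell. Eif1a (chromosome 18, 46597701 to 46616456) was at 77.8, 83.4 and 88.4 CPM against 116, 116 and 135 CPM in the controls (log2 fold change -0.56 ± 0.08; edgeR, adjusted p = 1.08e-05). Eif1ax, its X-linked copy, was lower at -0.30 ± 0.07 (adjusted p = 0.00236 in edgeR), a call lost in limma on log2(TPM + 1) and with the GC trend removed. The eIF1 paralog Eif1b had 19.9, 20.6 and 25.1 CPM against 28.6, 32.4 and 35.7 CPM. It too was called lower, at -0.56 ± 0.12 (edgeR, adjusted p = 7.23e-04), though 12.7% of its exon length overlaps another gene and its value is uncertain. Eif1ad, a gene related to Eif1a, was not called and was also uncertain. In CPM every C2S value of Eif1b, Eif1a and Eif1ax was under every control value, in contrast to Eif1, and 61.1% of all tested genes had no overlap. In TPM, an abundance scaled by transcript length, the groups of Eif1ax overlapped, at 64.1, 118 and 98.2 against 122, 71.6 and 127 in the controls.

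eIF2 carries the initiator tRNA and is made of an alpha, a beta and a gamma subunit. Eif2s1, the alpha subunit that stress kinases phosphorylate, fell from 156, 159 and 169 CPM in the controls to 139, 125 and 133 CPM (log2 fold change -0.29 ± 0.06; edgeR, adjusted p = 0.00108). With the GC trend of each library removed, that call was lost. Eif2s2, the beta subunit, rose from 114, 128 and 131 CPM to 140, 151 and 139 CPM (log2 fold change 0.20 ± 0.07; edgeR, adjusted p = 0.0169), a call lost on library sizes alone, without C2S replicate 2 (adjusted p = 0.0564) and without PM_control replicate 1 (adjusted p = 0.0972). Eif2s3x and Eif2s3y, the gamma subunits on the X and the Y chromosome, were at 270, 285 and 272 against 253, 271 and 267 CPM and at 28, 28.1 and 31 against 30.9, 31.6 and 33.2 CPM. Neither was called. Eif2s2 and Eif2s3x share reads with other copies and are uncertain.

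Eif2a and Eif2d encode factors able to deliver the initiator tRNA outside the usual eIF2 route. Eif2a was at 80.3, 85.8 and 70.9 CPM against 67.4, 69.2 and 69.4 CPM (log2 fold change 0.20 ± 0.08; edgeR, adjusted p = 0.0421), a call that 9 of 17 alternatives ended. Leaving out 1 library ended it in 5 of 6 cases, with adjusted p-values of 0.0754 to 0.162 in edgeR, the exception being C2S replicate 3. Eif2d was at 48.7, 42.5 and 46.8 CPM against 44.9, 41.5 and 45.6 CPM and was not called.

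eIF2B, the exchange factor that reloads eIF2 with GTP, changed unevenly across its 5 subunit genes. Eif2b4, a subunit of the regulatory part, had the clearest change. It fell from 64.2, 72.3 and 68.8 CPM in the controls to 44, 45.7 and 42.2 CPM with C2S, so that no C2S library reached the lowest control. The log2 fold change of Eif2b4 (chromosome 5, 31187558 to 31193430) was -0.64 ± 0.08 (edgeR, adjusted p = 4.85e-06). Eif2b5, the catalytic subunit, rose slightly from 108, 110 and 106 to 125, 127 and 126 CPM (0.22 ± 0.06; edgeR, adjusted p = 0.0049), and Eif2b2 from 37.6, 39.1 and 39.6 to 49.7, 46.8 and 43.7 CPM (0.27 ± 0.09; adjusted p = 0.0118). Both of those calls were lost when library sizes alone set the scale, and that of Eif2b2 also without C2S replicate 1 (adjusted p = 0.0538). Eif2b1 was at 62.7, 65.9 and 66.9 against 56.6, 67.3 and 59.1 CPM and Eif2b3 at 29, 34.6 and 33.1 against 33.9, 30.5 and 36.9 CPM, and neither was called.

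The 4 eIF2α kinases sense different stresses. Of their genes, 1 was called lower (25%, against 28.4% of all genes) and 0 higher (against 27.0%). Eif2ak2, or PKR, which senses double-stranded RNA, fell from 54.2, 54.5 and 60.3 CPM to 40.5, 47.3 and 44.2 CPM (log2 fold change -0.36 ± 0.09; edgeR, adjusted p = 0.00223). Eif2ak1, the heme-regulated kinase, was at 85.1, 85.2 and 86.6 CPM against 93.7, 97.8 and 92.2 CPM (-0.14; adjusted p = 0.0809 in edgeR). Eif2ak3, or PERK of the endoplasmic reticulum, was at 34.3, 44.5 and 41 against 35.2, 34.2 and 35.3 CPM (adjusted p = 0.115), and Eif2ak4, or GCN2 of amino acid shortage, at 39, 41.4 and 41.1 against 37.7, 38.8 and 35.8 CPM (adjusted p = 0.268). For Eif2ak3 the groups overlapped, and for Eif2ak1 and Eif2ak4 they did not, but neither passed the threshold. Other settings called Eif2ak1 lower, among them library sizes alone (-0.23, edgeR adjusted p = 0.00711) and limma on log2(TPM + 1) (-0.23, adjusted p = 0.0377). Eif2ak3 was called higher without C2S replicate 1.

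eIF3 is the large scaffold that holds initiation factors on the small subunit. Of its 14 genes, 6 were higher (42.9%, against 27.0% of all genes), 2 lower (14.3%, against 28.4%) and 6 not called. The share called in either direction, 57.1%, was near the 55.4% of all genes, and the median log2 fold change was 0.12. Eif3f rose most, from 354, 409 and 382 CPM to 491, 517 and 506 CPM (0.40 ± 0.06; edgeR, adjusted p = 3.76e-05). Eif3k went from 114, 119 and 120 CPM to 140, 148 and 154 CPM (0.32 ± 0.06; edgeR, adjusted p = 3.07e-04), and the groups do not overlap for either gene. Eif3b, Eif3c, Eif3h and Eif3i were the other 4 called higher, at 0.21 to 0.31, and Eif3b and Eif3h lost their calls with limma on log2(TPM + 1). Lower were Eif3a, the largest subunit, at 762, 720 and 711 CPM against 704, 621 and 594 CPM with C2S (-0.19 ± 0.07; edgeR, adjusted p = 0.0242), and the uncertain gene Eif3j2, at 59, 62.2 and 60.3 against 46.4, 44.9 and 50.5 CPM (-0.35 ± 0.08; adjusted p = 0.00131). Both of these calls were lost when the GC trend was removed, a setting with 8 higher and 0 lower among the 14. Eif3a was also not called without C2S replicate 2, C2S replicate 3 or PM_control replicate 1 (edgeR, adjusted p = 0.0536, 0.135 and 0.0965).

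**Figure D2:**
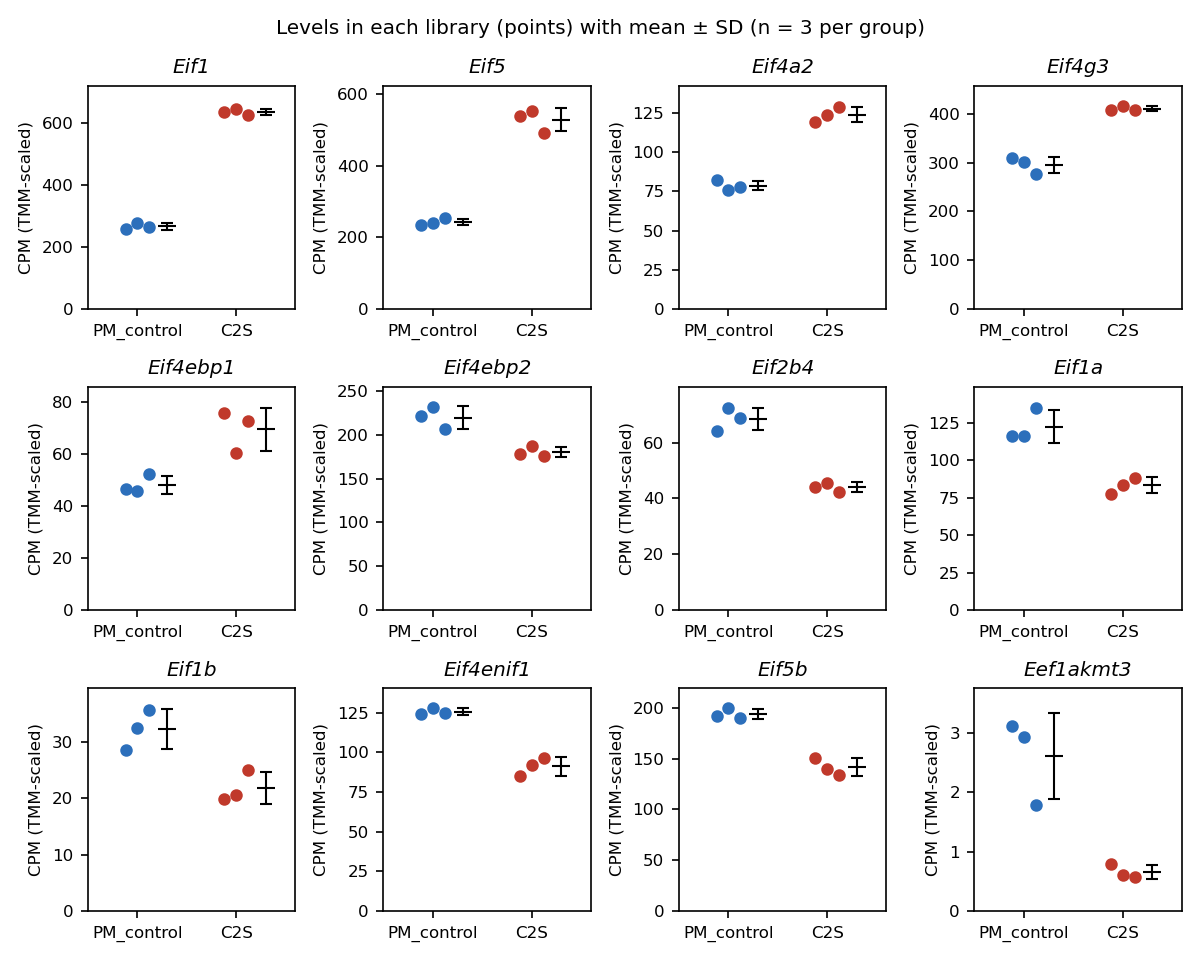
CPM in each library for 12 of the genes, with a point per library and the mean and SD per group (n = 3). Eif1, Eif5, Eif4a2, Eif4g3 and Eif4ebp1 are higher in every C2S library than in any control, and Eif4ebp2, Eif2b4, Eif1a, Eif1b, Eif4enif1, Eif5b and Eef1akmt3 lower.

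Among the cap complex genes, the helicase paralog Eif4a2 and the scaffold Eif4g3 rose while Eif4g1 and Eif4e did not. eIF4A unwinds the mRNA leader. Eif4a2 (chromosome 16, 23107444 to 23114136) went from 82, 76.1 and 77.9 CPM to 119, 124 and 129 CPM (0.66 ± 0.07; edgeR, adjusted p = 3.37e-07). Its more abundant paralog Eif4a1 was at 927, 992 and 1058 CPM in the controls and 1140, 1171 and 1191 CPM with C2S (0.24 ± 0.06; edgeR, adjusted p = 0.00453), a smaller rise that was lost on library sizes alone and an uncertain one, since Eif4a1 shares reads. Eif4a3, the helicase of the exon junction complex, and Eif4b and Eif4h, which help eIF4A, were not called.

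eIF4G bridges the cap complex and the ribosome. Eif4g3 went from 309, 301 and 277 CPM to 407, 416 and 407 CPM (0.47 ± 0.06; edgeR, adjusted p = 3.90e-06). Eif4g1 was at 1625, 1577 and 1645 CPM with C2S against 1813, 1766 and 1690 CPM (-0.12; adjusted p = 0.101), and Eif4g2, which works without the cap-binding eIF4E, was at 1741, 1861 and 1645 against 1616, 1595 and 1513 CPM (0.15; adjusted p = 0.0537 in edgeR). Neither of these 2 was called, although their groups do not overlap. Both change their call in other settings, Eif4g1 to lower under library sizes alone and Eif4g2 to higher under DESeq2.

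The cap-binding protein and its regulators showed the 2 main eIF4E-binding protein genes going opposite ways. Eif4ebp1 rose from 46.5, 45.9 and 52.3 CPM to 75.9, 60.3 and 72.6 CPM (0.53 ± 0.09; edgeR, adjusted p = 1.49e-04). Eif4ebp2 fell from 221, 232 and 206 CPM to 178, 187 and 176 CPM (-0.28 ± 0.06; edgeR, adjusted p = 9.37e-04). Eif4e itself was at 146, 172 and 169 CPM with C2S against 178, 182 and 183 CPM, and did not pass (-0.16; edgeR, adjusted p = 0.0596). It was called lower in 6 of 17 alternatives, among them library sizes alone (-0.24; adjusted p = 0.00509) and limma on log2(TPM + 1) (-0.32; adjusted p = 0.00584). Eif4enif1, a transporter of eIF4E that also acts in storing mRNA, fell from 124, 128 and 125 CPM to 84.9, 92.3 and 96.4 CPM (-0.46 ± 0.07; edgeR, adjusted p = 1.84e-05). The eIF4E relatives Eif4e2 (139, 124 and 129 against 134, 123 and 135 CPM) and Eif4e3 (17.3, 17.8 and 22.3 against 18.9, 20.3 and 18.8 CPM, uncertain) were not called, though limma on log2(TPM + 1) called Eif4e2 lower (-0.31; adjusted p = 0.0106).

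Of the late initiation factor genes besides Eif5, Eif5b fell and Eif6 rose. Eif5b, the GTPase of subunit joining, was at 192, 200 and 190 CPM in the controls and 151, 140 and 134 CPM with C2S (-0.45 ± 0.06; edgeR, adjusted p = 1.08e-05), though 16.8% of its exon length overlaps the gene Rev1 and it is uncertain. Eif6, which keeps the subunits apart, was at 138, 140 and 134 against 176, 142 and 158 CPM with C2S (0.21 ± 0.07; edgeR, adjusted p = 0.021). Its lowest C2S value lies just above its highest control. The call was lost on library sizes alone, with the GC trend removed, without C2S replicate 1 (adjusted p = 0.121) and without PM_control replicate 3 (adjusted p = 0.0687). Eif5a, whose hypusine-modified protein eases difficult peptide bonds, was at 1952, 1635 and 1852 CPM against 1601, 1628 and 1693 CPM and was not called (adjusted p = 0.0864).

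Of the 7 tested genes of eEF1 and of eEF2 with its kinase, 5 were called higher, by small amounts, and 2 were not called. By group, 80% of the tested eEF1 genes and 50% of those of eEF2 with its kinase were called higher, against 27.0% of all genes. No gene of either group was called lower, against 28.4% of all genes. Eef1a1, the most abundant of all these genes, was at 9018, 9448 and 9420 CPM with C2S against 8052, 8391 and 8159 CPM (0.18 ± 0.06; edgeR, adjusted p = 0.0231). Eef1b2, Eef1d and Eef1g, the exchange factor subunits that reload eEF1A with GTP, were called higher at 0.17 to 0.19. The 4 eEF1 calls were lost together on library sizes alone, with limma on log2(TPM + 1) and without PM_control replicate 1. That of Eef1a1 was lost in 4 of the 6 fits that left out 1 library, with adjusted p-values of 0.0514 to 0.0835 in edgeR, and kept without C2S replicate 1 or 2. Of these, Eef1a1 and Eef1g share reads with other copies and are uncertain. Eef1e1, a partner of tRNA synthetases, was not called. Eef2 (chromosome 10, 81176631 to 81182498) rose from 4180, 4443 and 4108 CPM to 5505, 5123 and 5213 CPM (0.32 ± 0.06; edgeR, adjusted p = 5.39e-04), and its call was kept in all 17 alternatives. Its inhibitory kinase gene Eef2k stayed low, at 3.63, 4.08 and 5.76 against 3.67, 4.55 and 4.72 CPM, and was not called.

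Of the 4 tested methyltransferase genes of elongation factors, 0 were higher (against 27.0% of all genes) and 2 lower (50%, against 28.4%). Eef1akmt3 had the largest change of these genes, on few reads, with counts of 8, 5 and 5 with C2S and 34, 29 and 17 in the controls (-1.98 ± 0.42; edgeR, adjusted p = 7.05e-04). Eef1akmt1 was at 18.4, 20.9 and 18 against 24.5, 28.4 and 23.3 CPM (-0.41 ± 0.12; edgeR, adjusted p = 0.00733), a call lost without PM_control replicate 2 (-0.32; adjusted p = 0.0556). Eef1akmt2 and the uncertain Eef2kmt were not called. Other settings called Eef1akmt2 lower, among them library sizes alone (-0.50, edgeR adjusted p = 0.0308) and limma on log2(TPM + 1) (-0.47, adjusted p = 0.0114).

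Levels compared between genes are given as TPM, the authors' length-scaled abundance in which all transcripts of a library sum to a fixed total. Among the 63 tested genes, mean TPM over the 6 libraries ran from 0.995 for Eef1akmt3 to 9231 for Eef1a1, with Eef2 at 2470, Eif5a at 2409 and Eif4a1 at 1409. The eIF3 genes, whose proteins form 1 complex, spread from 12.3 (Eif3j1) to 470 (Eif3b) TPM, and the eIF2B genes from 36.8 (Eif2b3) to 68.1 (Eif2b4). Together the 67 genes took 2.80%, 2.80% and 2.77% of all TPM with C2S and 2.59%, 2.62% and 2.60% in the controls, a higher share in every C2S library, with no test of the difference. Without Eef1a1 and Eef2 the mean shares were 1.57% and 1.48%. Eef1a1 alone accounted for 0.951 ± 0.00991% with C2S and 0.895 ± 0.00875% in the controls (SD, n = 3 per group). By complex, the 3 C2S shares were wholly above the controls for eEF1, for eEF2 with its kinase, for eIF1 with eIF1A, for eIF3, for eIF4A and for the eIF5 to eIF6 genes. They were wholly below for eIF2B, the eIF2α kinases, the eIF4E genes and the methyltransferases, and overlapped for eIF2 and eIF4G. Such a sum weighs abundant genes most and need not describe each member. In eIF1 with eIF1A, 1 of 5 genes was called higher and 3 lower, and in eIF2B 2 of 5 were called higher and 1 lower.

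**Figure D3:**
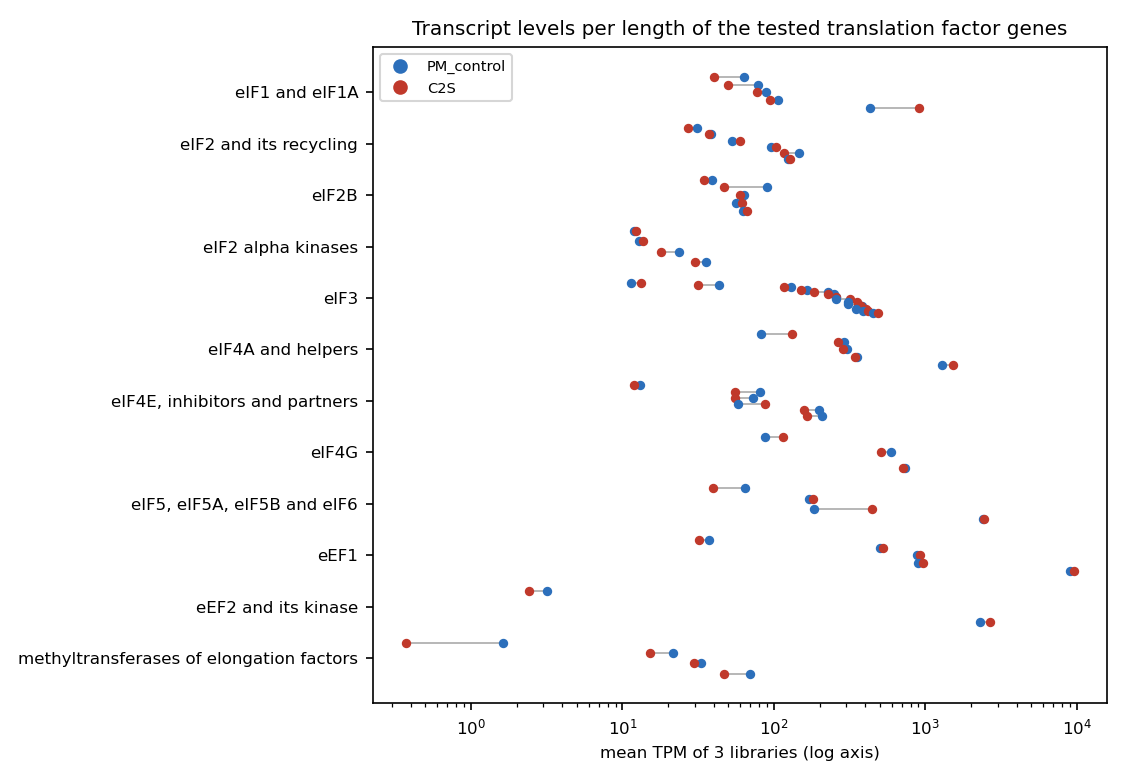
Mean TPM of 3 libraries on a log axis for each tested gene, by factor complex, with a line joining its PM_control and C2S values. Eef1a1 lies farthest to the right at 8947 and 9514 TPM, Eef1akmt3 farthest to the left, and Eif1 at 429 and 906 TPM is among the pairs spread widest.

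Because the members of a pair share one library, ratios between paralogs do not depend on how libraries are scaled. Of 9 ratios of TPM, 6 did not overlap between the groups, a share near the 61.1% of all tested genes whose own levels did not overlap. A test of 3 libraries against 3 cannot give a 2-sided exact permutation p under 0.1. Eif1b over Eif1 was 0.0417, 0.0395 and 0.0517 with C2S and 0.123, 0.148 and 0.179 in the controls. Eif4ebp1 over Eif4ebp2 was 1.64, 1.36 and 1.74 against 0.637, 0.894 and 0.85, so the more abundant of the 2 transcripts per length differed between the groups. Eif4a2 over Eif4a1 was 0.0859 ± 0.0062 with C2S and 0.0643 ± 0.00492 in the controls (SD, n = 3 per group), and Eif4g3 over Eif4g1 was 0.222 ± 0.0102 and 0.147 ± 0.00358. Eif4ebp1 plus Eif4ebp2 over Eif4e was 0.867 ± 0.0538 and 0.634 ± 0.0403. Eif2s3y over Eif2s3x was 0.215 ± 0.0216 and 0.254 ± 0.0118. Ratios of Eif5 over Eif1, Eif4e2 over Eif4e and Eif1ax over Eif1a overlapped.

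**Figure D4:**
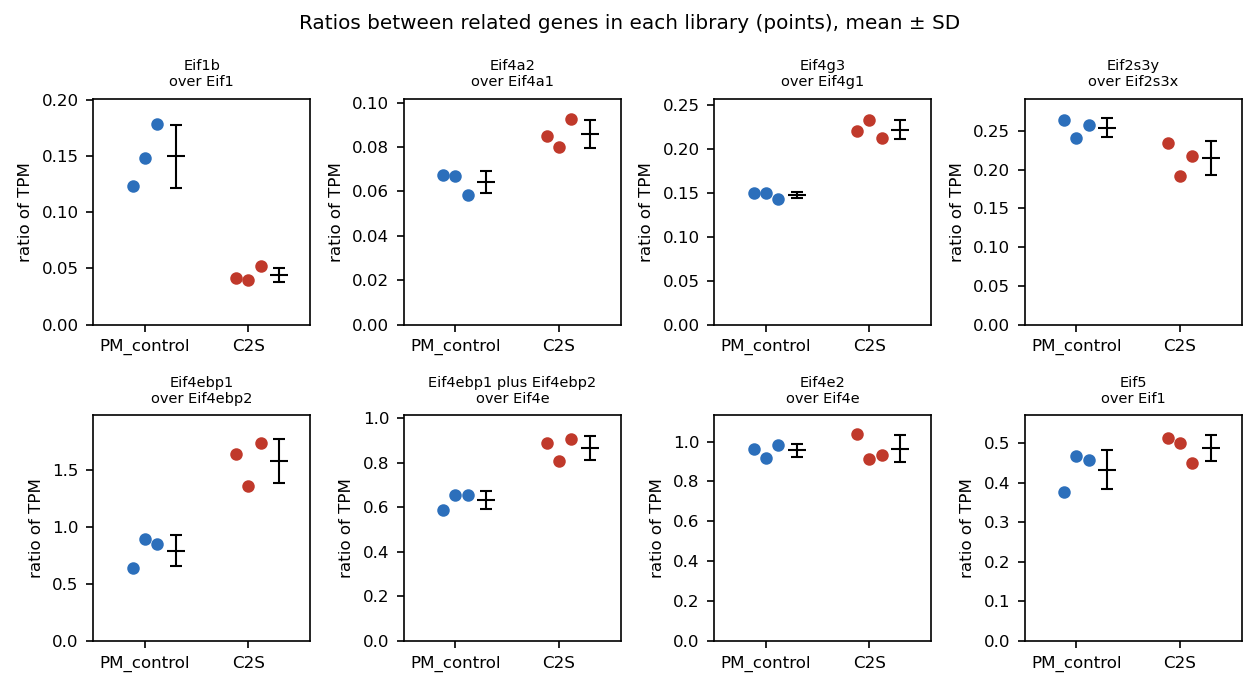
Ratios of the TPM of related genes in each library for 8 of the 9 ratios, with a point per library and the mean and SD per group (n = 3). Eif1b over Eif1 is below every control value in every C2S library, and Eif4ebp1 over Eif4ebp2, Eif4a2 over Eif4a1 and Eif4g3 over Eif4g1 are above.

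What the called genes share was checked for base composition, which the choice of members did not use. The median GC content of exons was 51% for the 22 higher genes, 44.4% for the 13 lower ones and 50.5% for those not called, against 50.1% for all protein-coding genes tested. The ranges were nearly the same, 40.7% to 57.1% for the higher genes and 40.1% to 56.7% for the lower ones. With the trend over GC content removed from each library, 23 were higher and 10 lower, of which 18 and 9 were called that way before. Over all genes that setting called 6238 of 11561, with 53.7% of the calls higher, against 48.8% in the reported fit. Over all 17 alternatives, 10 of the 22 higher genes and 8 of the 13 lower ones kept their call in each alternative that could test them. The 10 were Eef2, Eif1, Eif3c, Eif3f, Eif3i, Eif3k, Eif4a2, Eif4ebp1, Eif4g3 and Eif5, and the 8 were Eef1akmt3, Eif1a, Eif1b, Eif2ak2, Eif2b4, Eif4ebp2, Eif4enif1 and Eif5b. Eef1akmt3 could be tested in 15.

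**Figure D5:**
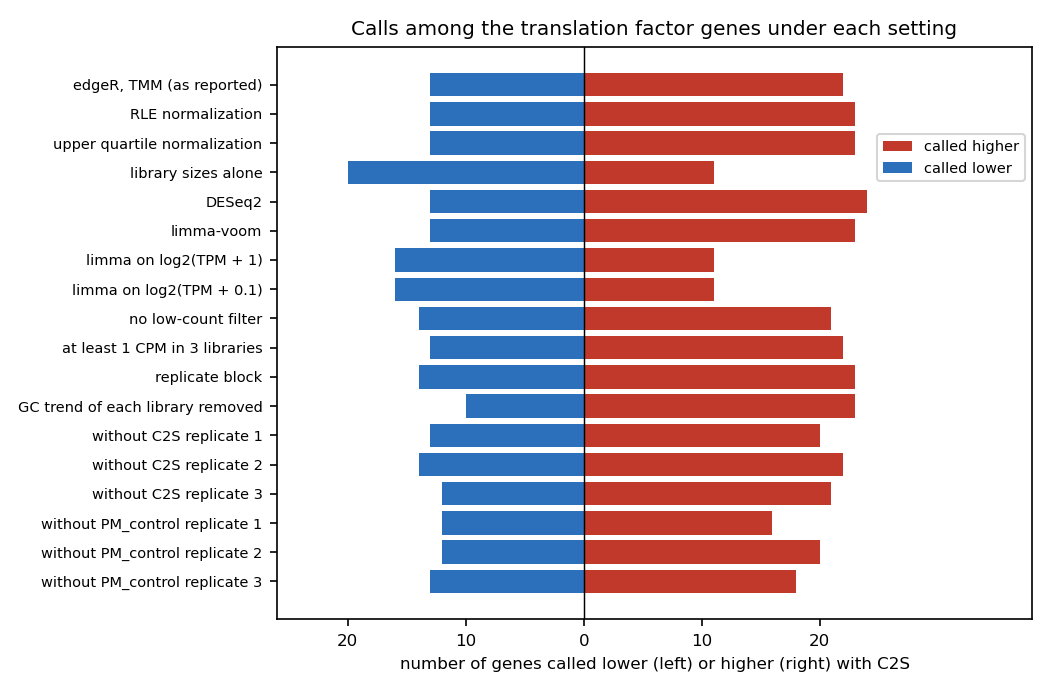
Number of the tested genes called higher (right) and lower (left) with C2S under each setting. The reported fit gives 22 and 13, and library sizes alone give 11 and 20. Over all genes, 48.8% and 38.3% of the calls in these 2 fits were higher.

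Other genes of the same pathway were taken from lists chosen with earlier results of these data known, so their direction is no independent evidence. The eIF2α phosphatases and stress signalling genes had the largest changes, with 6 of 11 tested genes higher (54.5%, against 27.0% of all genes) and 2 lower (18.2%, against 28.4%). Ppp1r15a, the stress-induced subunit that directs phosphatase to eIF2α, was at 239 ± 15.4 CPM with C2S and 11.4 ± 1.31 in the controls (SD, n = 3 each) and was called higher (log2 fold change 4.38 ± 0.09; edgeR, adjusted p = 8.62e-16). Its constitutive relative Ppp1r15b, an uncertain gene, was at 225 ± 4.92 and 228 ± 4.33 CPM. Atf4, whose translation rises when eIF2α is phosphorylated, went from 146 ± 10.6 to 597 ± 24.2 CPM (2.03 ± 0.07; edgeR, adjusted p = 1.67e-13), and Trib3 from 2.22 ± 0.667 to 135 ± 0.602 CPM (5.90 ± 0.13). Nck1, an adaptor, fell at -1.45 ± 0.17 (adjusted p = 1.70e-06).

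Of 19 tested genes of mTORC1 and MNK signalling, 8 were higher (42.1%, against 27.0% of all genes) and 5 lower (26.3%, close to the 28.4% of all genes). Sesn2 and Ddit4, inhibitors of mTORC1, had log2 fold changes of 3.42 ± 0.08 and 3.80 ± 0.18, while Sesn1 was at -1.73 ± 0.12. Mknk2, a kinase of eIF4E, went from 147 ± 7.17 to 517 ± 48.3 CPM (1.82 ± 0.07; edgeR, adjusted p = 2.04e-12). Of 9 poly(A)-binding proteins and partners, 6 were higher (66.7%) and 2 lower (22.2%), against the same 27.0% and 28.4%, among them Pabpc1 (0.40 ± 0.07, uncertain), Paip2b, an inhibitor of it (0.84 ± 0.08), and Paip1, a partner of it (-0.50 ± 0.10). Both lower calls of that list were lost with the GC trend removed.

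The remaining lists were small, and over all genes the shares were 27.0% higher and 28.4% lower. Termination and recycling had 1 of 8 higher (12.5%) and 3 lower (37.5%), with Gspt1, the release factor eRF3a, at -0.40 ± 0.06 (edgeR, adjusted p = 5.45e-05), Abce1, the recycling ATPase, at -0.48 ± 0.06 and the uncertain Hbs1l at 0.38 ± 0.08. Modification of the factors, such as hypusine on eIF5A and diphthamide on eEF2, had 1 of 12 higher (8.33%) and 5 lower (41.7%), among them Dhps (0.30 ± 0.11), a call lost on library sizes alone and without C2S replicate 2 or PM_control replicate 1 (adjusted p = 0.106 and 0.135), and Dnajc24 (-1.01 ± 0.17). Selenocysteine and mitochondrial factors had 2 of 13 higher (15.4%) and 5 lower (38.5%), with Sepsecs at 0.51 ± 0.11, the uncertain Mtif3 at -1.09 ± 0.18 and the uncertain mitochondrial elongation factor Tufm at -0.04 (edgeR, adjusted p = 0.558).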

How the data were processed

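Total RNA of 6 libraries of RAW264.7 cells was sequenced, 3 with C2S and 3 PM_control. The authors used fastp for trimming, STAR with mm10 for alignment, RSEM for counting and edgeR for their own comparison, per the design text. No version, strandedness or gene annotation is given in the sources used here. The deposited expected counts are estimates of the reads of each gene, in which RSEM divides reads that map to several genes. The deposited TPM values correct those estimates for transcript length and then for depth, per the file headers. Of 52636 genes per table, 52489 were found in GENCODE M21 (GRCm38), which gave symbols, coordinates and GC content.

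Expected counts were rounded to whole numbers, filtered with filterByExpr (minimum count 10, minimum total 15; 11561 genes, 99.85% of counts) and tested with edgeR's quasi-likelihood F test with TMM and the group as the only term (R 4.3.3 with edgeR 4.0.16), adjusted over all genes tested by Benjamini-Hochberg at 0.05. SEs are the fold change over the square root of F and so approximate. A gene was given as uncertain where 10% or more of its exon length overlaps another gene, on either strand, or where its expected counts were more than 0.005 from whole numbers. Named genes were a fixed set of regulators and subunits whatever their p, and the 2 largest called changes per complex and direction among genes with 5 CPM or more on average. Members and lists were chosen with earlier results of these data known. Of 76 symbols in the pathway lists, 75 were matched. A further cell type marker is not reported here.

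In a simulation of C2S against PM_control over 11401 genes, 85.7% of genes changed by 1.5-fold, 85.7% of those changed by 2-fold and 97.96% of those changed by 4-fold were recovered. False calls numbered 9. All genes were drawn with a common dispersion and only a small part were changed, whereas 55.4% of the real genes were called. Changes under 1.5-fold, the size of most changes reported here, were not simulated. Alternatives were RLE, upper quartile and library sizes alone, DESeq2 (1.42.0), limma-voom (limma 3.58.1), limma on log2(TPM + 1) and log2(TPM + 0.1), a filter of 1 CPM in 3 libraries, testing without a filter, the replicate block, removal of the GC trend and leaving out each library.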

Additional observations from a re-analysis of the deposited data

How the results depend on the processing

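Relative to 22 higher and 13 lower genes, library sizes alone gave 11 and 20, and both TPM pseudocounts gave 11 and 16. Higher calls thus outnumbered lower ones among the Eif and Eef genes in the reported fit but not in these settings. The median of all genes moves to -0.09 with library sizes alone and -0.1 with log2(TPM + 0.1), and the higher share of all calls goes from 48.8% to 38.3% and 35.9%. Calls over all genes numbered 6405 of 11561 in the reported fit and 6477 of 11561 with library sizes alone. With log2(TPM + 0.1) they numbered 4754 of 11805. At least 1.5-fold lower calls numbered 4, rather than 2, with library sizes alone and with both TPM pseudocounts, and 2 to 4 when each library was left out in turn (4 without C2S replicate 3 or without PM_control replicate 1). Leaving out a library gave 16 to 22 higher, 12 to 14 lower and 3 to 4 at least 1.5-fold higher. Over all genes those fits called 5733 to 6249 of 11561, with 48.7% to 49.4% of the calls higher. The difference in the share of all TPM, 0.189 percentage points, was 0.0967 without Eef1a1 and Eef2. Among genes called in either fit, the sign reversed for Eif2b2, to -0.05 with both TPM pseudocounts, for Eif4e2, to -0.31 with both, and, with the GC trend removed, for Eif2s3y, to 0.37, Eif3e, from -0.03 to 0.45 (adjusted p = 1.50e-05), and Eif3m, from -0.03 to 0.25 (adjusted p = 0.00729), and the cause was not tested. Some genes called in neither fit also changed sign, such as Eef2k (0.06, and -0.30 with log2(TPM + 1)), Eif4g2 (0.15, and -0.06 with log2(TPM + 1)) and Eif4e (-0.16, and 0.03 with the GC trend removed). Replicate numbers did not pair the samples (correlations of same-numbered deviations -0.0112, 0.0686 and 0.0344), and the replicate block gave 23 higher and 14 lower, with 3 and 2 at 1.5-fold. Over all genes the block called 6489 of 11561, with 49.2% of the calls higher. Few or no reads limit what can be said of Eef1akmt3, Eef2k and the 4 untested genes. Whether depth or a lack of expression lies behind this was not tested.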
